A study of Homo sapiens with 2 samples.

Results

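Wnt genes were compared between SAS cells and eSAS cells on 2 microarrays. The genes were all those whose name on the array began with WNT, FZD, DKK, SFRP, AXIN, RSPO or LGR followed by a digit, together with LRP5, LRP6, CTNNB1, APC, GSK3B, LEF1, TCF7, TCF7L1, TCF7L2, WIF1, PORCN and FRZB. This rule found 57 genes with 87 probes, of 30484 gene names on the array. The rule itself used no measured value, but the Wnt genes were chosen with earlier results of these data known. SAS is a human squamous cell carcinoma line established from a tongue tumor, and eSAS is the population left after 5 rounds in which large spheroids of SAS cells were caught on a removable mesh and grown on. For neither population do the labels name an introduced gene or a drug, and both had been harvested in the log phase of growth. eSAS was 1 selected population, measured once, so a feature of this population cannot be told apart from an effect of the selection. With 1 array of each there were no replicate samples, no test between the cells was possible, no p-value is given, and every difference below compares these 2 RNA samples only.

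Wnt proteins are secreted lipid-modified ligands that bind Frizzled receptors together with the co-receptors LRP5 or LRP6. Binding stops the destruction complex of APC, AXIN and GSK3B from marking beta-catenin for degradation, and the stabilized beta-catenin then works with TCF and LEF factors on target genes, whereas other Wnt ligands act through planar cell polarity and calcium signalling. In stratified epithelia such as that of the tongue, Wnt signals are known for maintaining the progenitor cells of the basal layer, and DKK and SFRP proteins restrain them outside the cell.

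Transcripts of 4 Wnt genes were at least 2-fold lower on the eSAS array and of no Wnt gene at least 2-fold higher. In probes this was 5 of 50 measured (10.0%), where 1.97% of all measured probes were lower and 1.83% higher by that much. The 4 genes were the ligands WNT3A and WNT10A, the receptor FZD10, and PORCN, the enzyme that attaches the lipid to Wnt ligands. The destruction complex and beta-catenin differed little, with log2 ratios from -0.15 to 0.12 for the measured probes of CTNNB1, APC, AXIN1 and GSK3B. Of the TCF and LEF factors, TCF7 and TCF7L2 lay between 0.06 and 0.13, whereas TCF7L1 was at -0.82. LEF1 was at 0.48 on a dim probe, and at 0.03 under another background correction. No R-spondin, no SFRP and neither WIF1 nor AXIN2 was well above background on either array.

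The sequences before the transcription starts of WNT3A, WNT10A and PORCN are shown because these genes had the largest differences among the ligands and their acylation enzyme. Each is the 250 bases before the RefSeq start on GRCh38.p14, 5′ to 3′ on the plus strand, which is the strand of all 3 genes. Capitals mark the GC box, GGGCGG or its reverse complement.
WNT3A, chr1:228006748-228006997: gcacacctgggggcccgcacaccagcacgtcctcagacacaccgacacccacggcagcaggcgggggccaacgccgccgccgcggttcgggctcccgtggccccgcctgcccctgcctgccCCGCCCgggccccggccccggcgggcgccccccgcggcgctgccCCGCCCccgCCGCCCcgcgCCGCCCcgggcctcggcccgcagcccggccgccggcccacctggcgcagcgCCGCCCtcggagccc
WNT10A, chr2:218880602-218880851: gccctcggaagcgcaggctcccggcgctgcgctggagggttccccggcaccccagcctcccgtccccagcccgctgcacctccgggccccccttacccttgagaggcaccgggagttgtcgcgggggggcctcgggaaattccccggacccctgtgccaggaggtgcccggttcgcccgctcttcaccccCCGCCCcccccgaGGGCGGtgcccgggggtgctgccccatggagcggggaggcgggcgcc
PORCN, chrX:48508742-48508991: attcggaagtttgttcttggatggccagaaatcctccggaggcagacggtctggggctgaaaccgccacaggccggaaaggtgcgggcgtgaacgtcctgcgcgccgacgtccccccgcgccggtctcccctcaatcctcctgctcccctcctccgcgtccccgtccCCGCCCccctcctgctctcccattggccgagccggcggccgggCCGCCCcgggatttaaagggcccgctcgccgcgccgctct
GC boxes were found 5 times before WNT3A, 2 times before WNT10A and 2 times before PORCN, for which RefSeq lists 2 starts and the first is shown. The core of the TCF and LEF motif, searched as CTTTGA and CTTTGT on both strands, was found in none of the 3. Promoters were listed for 41 of the 57 genes. A GC box stood in 33 of the 41 (80.5%), against 42.6% of the 35116 starts in the table, and the TCF and LEF core in 3 of the 41 (7.3%), against 22.8%. G and C made up 70.8% of the bases in the median Wnt promoter and 58.0% in the median of all starts. These matches are a description of the letters only.

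RNA had been labelled with 1 dye and hybridised to both arrays of the same slide, and values are the scanner software's processed signals, in arbitrary units. Because brightness also depends on the probe, signals of different probes were not set against each other. Ratios are log2 of eSAS over SAS after division by each array's 75th percentile, 1242 for SAS and 1196 for eSAS, and the value after ± is the error that the software gives for its signals. A probe was taken as measured where it was well above background on at least 1 array by the software's own criterion, and for probes dim on the other array only a bound of the fold is given. The bound takes the dim signal as the higher of itself and the lowest signal well above background on that array. Where the dim signal was the higher, the value is the plain ratio to it and not a lower limit. For 211 probes printed 10 times per array, the log2 ratios of repeated spots had an SD of 0.182 below a signal of 100, 0.075 between 100 and 1000, and 0.042 above 1000. This spread is technical and leaves out the variation between cultures, as does the software's error.

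Of the 57 genes, 35 had a probe well above background on at least 1 array (50 of 87 probes), and 31 had one on both (45 probes). The 22 other genes were DKK2, DKK4, FZD8, LGR5, AXIN2, WIF1, RSPO1, RSPO2, RSPO3, SFRP1, SFRP2, SFRP4, SFRP5, WNT1, WNT2, WNT2B, WNT5A, WNT8A, WNT9A, WNT9B, WNT11 and WNT16. Their 33 probes had processed signals from 2.61 to 13.2 in SAS cells and from 3.1 to 9.81 in eSAS cells, against a lowest signal well above background of 12.8 and 15.2. Transcripts of these genes were not detectable with these probes, which does not show that they are absent.

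Among the 50 measured probes, 5 (10.0%), those of the 4 genes named above, were at least 2-fold lower in eSAS and 0 at least 2-fold higher. Over all 28439 measured probes on the arrays, 1.97% were at least 2-fold lower and 1.83% at least 2-fold higher. At 1.5-fold, 13 Wnt probes of 10 genes (26.0%) were lower and 1 (2.0%) was higher, against 6.12% and 4.43% of all probes. The median log2 ratio over the 45 probes measured on both arrays was -0.12, and 30 of them (66.7%) were below 0. For all probes that median was -0.0039 with an SD of 0.36, and 50.8% were below 0. Probes of 1 gene are not independent, since WNT10A gave 2 of the 5 probes and DKK3 gave 3 of the 13.

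**Figure D1:**
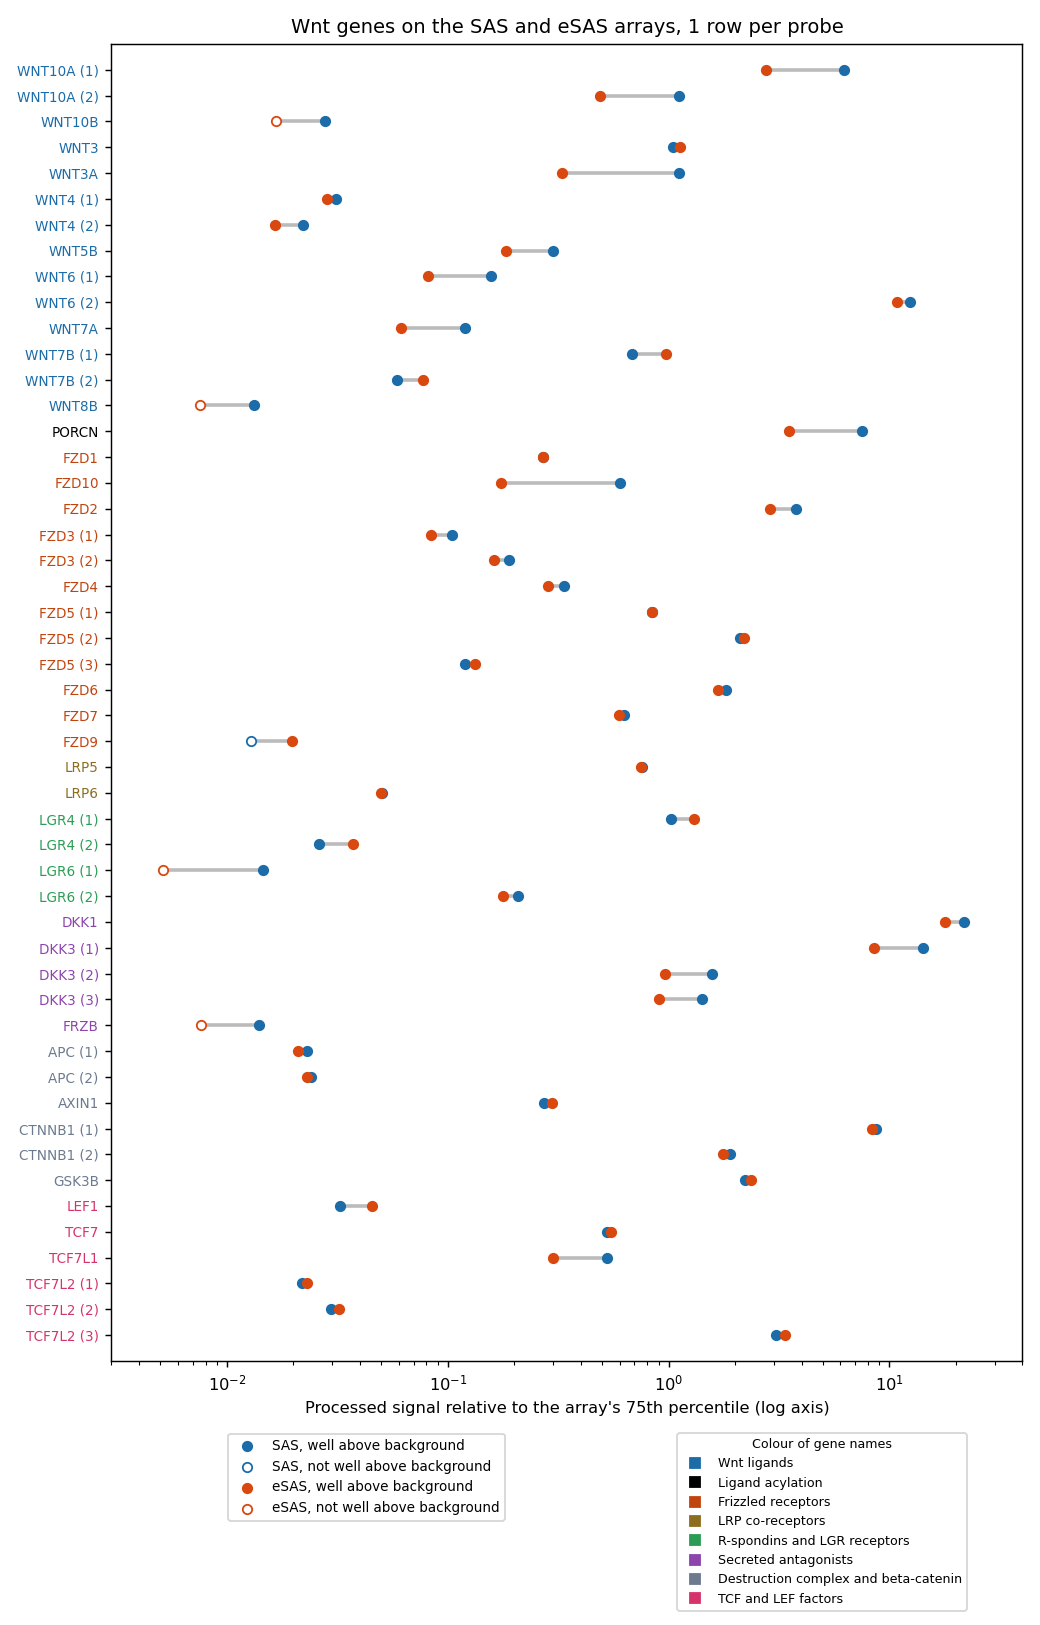
Processed signal of the 50 measured Wnt probes relative to the 75th percentile of the array (log axis), 1 row per probe, with SAS in blue and eSAS in orange. Gene names are coloured by role, numbers in brackets count the probes of 1 gene, and open circles were not well above background. The longest bars between filled circles are those of FZD10 (3.45-fold) and WNT3A (3.38-fold), with eSAS to the left, and those of CTNNB1 and GSK3B are among the shortest.

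Squamous markers were lower in eSAS as well. All 10 genes of the squamous list were well above background on both arrays, and all 13 of their probes were lower in eSAS, with log2 ratios from -6.58 to -0.16 and a median of -0.48. Summed over these probes without scaling, the signal went from 179929 in SAS cells to 118347 in eSAS cells. The single probe of S100A2 made up 87364 and 58373 of these sums. The lowest log2 ratio came from 1 of the 2 probes of KRT14, the basal keratin, with signals of 8749 and 88.3, and the other probe had 3136 and 1286. The part of this shift in the lower ligand signals was not tested, and in such bulk RNA fewer cells with a transcript and less of it per cell cannot be told apart. Of the 6 fibroblast genes, COL1A1 passed the background criterion in SAS cells alone (15.1) and LUM in eSAS cells alone (29.6, at least 2.40-fold higher), and COL1A2, COL3A1, DCN and PDGFRB were not detected. The LUM probe, like that of S100A2, lies in the rows with most of the marked spots described at the end. The leukocyte list had CD14 (215 and 233), with PTPRC, CD3E and LYZ not detected, and the endothelial list of 4 had VWF (85.9 and 77.0) and, on the SAS array, CDH5 (17.0).

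The ligands were mostly lower in eSAS. Of 19 WNT genes, 10 were measured, and the 12 probes well above background on both arrays had a median log2 ratio of -0.56, with 9 below 0 and 3 above. Of the 14 measured probes, 7 (6 genes) were at least 1.5-fold lower in eSAS and 0 at least 1.5-fold higher, against 6.12% and 4.43% of all probes. WNT5B and WNT10B were under 1.5-fold without background correction (-0.54 and -0.19). They were also under it by normexp on mean pixels without marked local background (-0.51 and -0.27). WNT5B was at least 1.5-fold lower under 10 of 14 ways of processing and WNT10B under 9 of 13. WNT7A was under 1.5-fold by normexp on median pixels (-0.56). Averaging the probes of WNT6 gave -0.57, also under 1.5-fold.

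WNT3A, a ligand best known for stabilizing beta-catenin, had a signal of 1376 in SAS and 392 in eSAS. This was a log2 ratio of -1.76 ± 0.20, or 3.38-fold lower in eSAS, and 0.296% of all probes well above background on both arrays had a ratio below it. The position of the probe is chromosome 1, 226315516 to 226315575, in hg18. The neighbouring ligand gene WNT9A, whose probe lies 139.8 kb away, was not detected.

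WNT10A, a ligand of ectodermal appendages and tongue papillae, was read by 2 probes on chromosome 2 of hg18, at 219466718 to 219466777 and 219466637 to 219466696. The first had signals of 7705 in SAS and 3303 in eSAS, and the second 1377 and 585. Although their brightness differed, their ratios were nearly the same, -1.17 ± 0.20 and -1.18 ± 0.20, or 2.25-fold and 2.27-fold lower in eSAS.

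WNT6, whose gene is the neighbour of WNT10A with probes 19.5 kb apart, did not give 1 answer. Its brighter probe had 15411 in SAS and 12964 in eSAS, a log2 ratio of -0.20 ± 0.20. The dimmer probe had 195 and 97.5, a ratio of -0.94 ± 0.21, or 1.92-fold lower. The probes disagree by more than the spread of repeated spots, so the level of WNT6 remains uncertain, whereas the bright probes of these neighbouring genes differed in their ratios.

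WNT7A and WNT5B were also lower in eSAS. WNT7A, a ligand made by many epithelia, had a signal of 149 in SAS and 73.4 in eSAS (log2 ratio -0.96 ± 0.22, 1.95-fold lower). WNT5B, a ligand mostly studied in signalling that does not use beta-catenin, had 370 and 220 (-0.69 ± 0.21, 1.61-fold lower). WNT10B, a close relative of WNT10A, had 34.4 in SAS and was not well above background in eSAS at 19.8. Relative to that dim signal it was 1.67-fold lower, which is not a lower limit.

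WNT7B went the other way with both of its probes. One had a signal of 845 in SAS and 1158 in eSAS (log2 ratio 0.51 ± 0.20), the other 73.5 and 92.5 (0.39 ± 0.22), and neither passed 1.5-fold. WNT7A and WNT7B, which are close paralogs, thus differed in opposite directions between these RNA samples.

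The remaining ligands were close to even or dim. WNT3, a paralog of WNT3A, had 1304 in SAS and 1348 in eSAS (0.10 ± 0.20). The probes of WNT4, a ligand known from kidney and gonad development, had 38.8 and 33.8 (-0.14 ± 0.27) and 27.5 and 19.7 (-0.43 ± 0.39). WNT8B, an embryonic ligand, was well above background in SAS at 16.5 and not in eSAS at 9.05, which bounds the difference at 1.05-fold.

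PORCN, the membrane-bound acyltransferase without which Wnt ligands are not secreted, had 1 probe on chromosome X of hg18 from 48264054 to 48264113. The signal was 9288 in SAS cells and 4175 in eSAS cells. The log2 ratio was -1.10 ± 0.20, or 2.14-fold lower in eSAS, and 1.02% of all probes had a lower ratio.

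**Figure D2:**
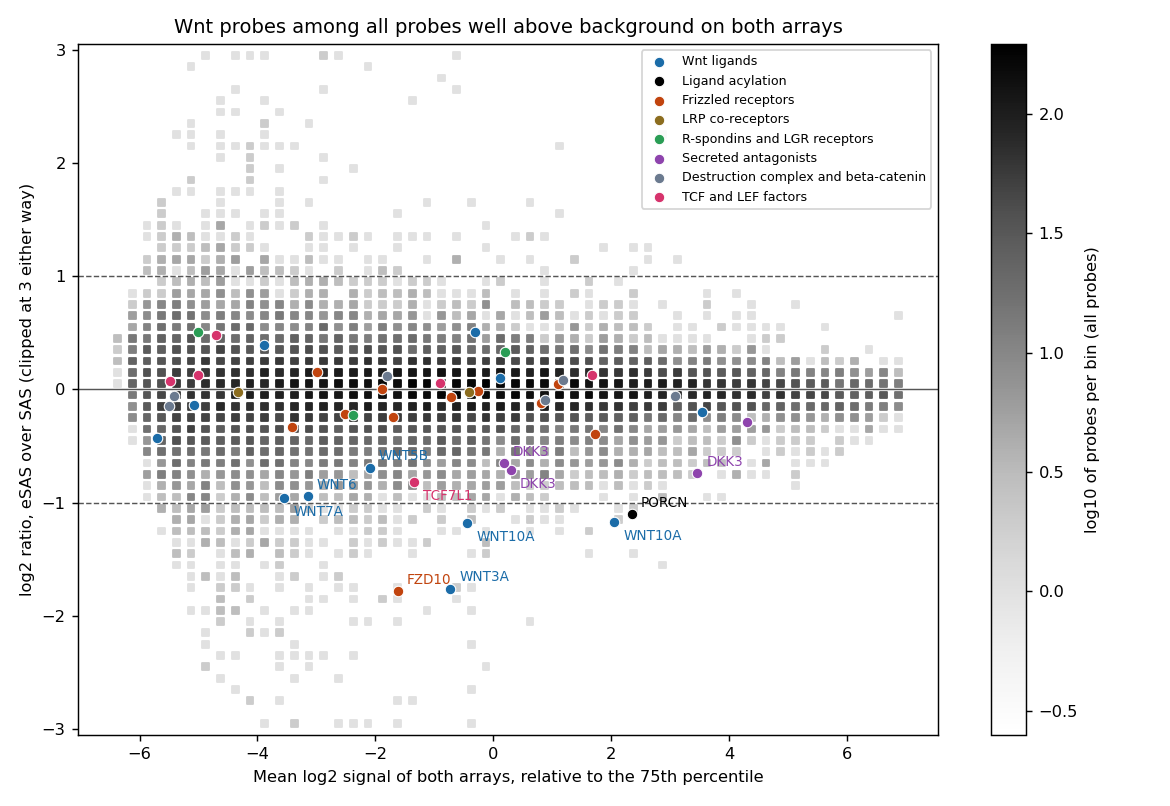
Log2 ratio of eSAS over SAS (vertical) against the mean log2 signal of both arrays (horizontal) for the 45 Wnt probes well above background on both arrays, coloured by role, over grey bins of all 26659 such probes. Dashed lines mark 2-fold, and Wnt probes past 1.5-fold are named. WNT3A (-1.76), FZD10 (-1.78), both WNT10A probes and PORCN lie below the lower line, and no Wnt probe lies above the upper one.

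Of the Frizzled receptors, FZD10 was past 1.5-fold in the lower direction and FZD9, by its ratio to a dim signal, in the higher. Each was 1 of 12 measured probes (8.33%), against 6.12% of all probes lower and 4.43% higher. Of 10 Frizzled genes, 9 were measured, and 11 probes well above background on both arrays had a median log2 ratio of -0.12. FZD10 had a signal of 751 in SAS and 210 in eSAS, a ratio of -1.78 ± 0.21 or 3.45-fold lower, with 0.278% of all probes below it. In hg18 the FZD10 probe maps to chromosome 12, 129216127 to 129216186.

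FZD2 was next, with 4694 in SAS and 3443 in eSAS (-0.39 ± 0.20). FZD3 had 2 probes that were similar, 130 and 100 (-0.33 ± 0.21) and 234 and 193 (-0.22 ± 0.21), and FZD4 had 417 and 339 (-0.24 ± 0.20). These receptors, of which FZD3 is known for axon guidance and FZD4 for retinal vessels, were all slightly lower in eSAS and under 1.5-fold.

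FZD6, which acts in hair and cell polarity, had 2265 in SAS and 2012 in eSAS (-0.12 ± 0.20), FZD7 had 777 and 714 (-0.07 ± 0.20), and FZD1 had 334 and 323 (0.00 ± 0.20). The 3 probes of FZD5 had 1046 and 1001, 2621 and 2621, and 149 and 159, with log2 ratios of -0.01, 0.05 and 0.15. FZD9 was the only receptor past 1.5-fold in the higher direction, at 1.55-fold relative to a dim signal. It had 23.7 in eSAS and was not well above background in SAS at 15.9, and without the software's background correction its ratio was 0.24.

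The co-receptors were even. LRP5 had 944 in SAS and 898 in eSAS, and LRP6 had 62.3 and 59.3, each with a log2 ratio of -0.02, with errors of 0.20 and 0.25.

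Among the R-spondins, which raise Wnt sensitivity, and their LGR receptors, only LGR4 and LGR6 were measured. LGR4 was higher in eSAS with both probes, 1276 and 1551 (0.33 ± 0.20) and 32.4 and 44.4 (0.51 ± 0.26), and neither passed 1.5-fold. The brighter probe lies in the rows with most of the marked spots described at the end. Under normexp on mean pixels without marked local background, the dimmer probe gave 0.20. LGR6, which marks stem cells of skin and taste buds, had 258 in SAS and 212 in eSAS (-0.23 ± 0.21) with its brighter probe, while the dim probe was well above background in SAS at 18.1 and not in eSAS at 6.17, a bound of 1.15-fold. LGR5, the stem cell marker of the intestine, was not detected.

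Of 10 secreted antagonists, DKK1, DKK3 and FRZB were measured. DKK3, a divergent member of the Dickkopf family, was lower in eSAS with all 3 probes. They had 17618 in SAS and 10178 in eSAS, 1955 and 1148, and 1763 and 1081, or 1.67-fold, 1.64-fold and 1.57-fold lower (log2 ratios -0.74, -0.71 and -0.65, each ± 0.20).

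DKK1, which blocks LRP5 and LRP6 and is itself a target of beta-catenin, was bright on both arrays, with 27102 in SAS and 21384 in eSAS (-0.29 ± 0.20). FRZB, a decoy that binds Wnt ligands, was well above background in SAS at 17.3 and not in eSAS at 9.09, which bounds the difference at 1.10-fold.

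Inside the cell, the destruction complex and beta-catenin had a median log2 ratio of -0.06 over 6 probes, from -0.15 to 0.12. CTNNB1, which encodes beta-catenin, had 10783 in SAS and 9974 in eSAS (-0.06) with a probe printed 10 times, of which 9 spots were kept. These spots ranged from -0.12 to 0.02 with an SD of 0.049, and the other probe, with 2344 and 2118, gave -0.09. GSK3B, the kinase that phosphorylates beta-catenin, had 2754 and 2812, a ratio of 0.08 whose repeated spots had an SD of 0.025.

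APC, the scaffold of the complex, was dim. Its probes had 28.7 in SAS and 25.0 in eSAS (-0.15) and 29.8 and 27.6 (-0.06), and the repeated spots of the first ranged from -0.43 to 0.13 with an SD of 0.186. AXIN1, the other scaffold, had 340 and 355 (0.12 ± 0.21). AXIN2, a target gene that feeds back on the pathway and is widely used to read it, was not well above background with any of its 3 probes, whose signals were between 2.61 and 3.67.

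Of the nuclear factors, TCF7L1 stood apart. TCF7L1, which often acts as a repressor of Wnt targets, had 653 in SAS and 356 in eSAS (-0.82 ± 0.20, 1.77-fold lower). LEF1, an activator, was dim, with 40.3 and 54.3 (0.48 ± 0.25), under 1.5-fold and with its other probe not detected. Under normexp on mean pixels without marked local background, the LEF1 ratio was 0.03.

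TCF7 had 653 and 656 (0.06), with an SD of 0.023 between its repeated spots. TCF7L2, the main partner of beta-catenin in the intestine, had 3796 and 4014 with its brightest probe (0.13 ± 0.20), and the dimmer ones gave 0.07 and 0.13. TCF7L1 was therefore the only one of the 4 factors past 1.5-fold.

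**Figure D3:**
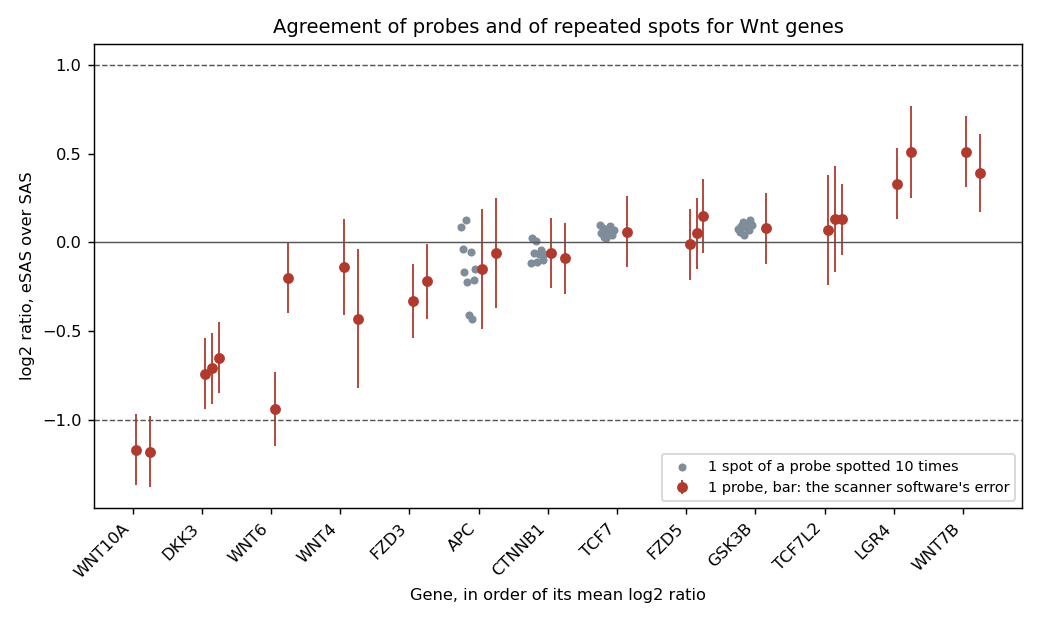
Log2 ratio of eSAS over SAS for Wnt genes with more than 1 probe or with a probe printed 10 times, in order of the mean ratio. Red points are probes with the software's error as bars, and grey points are the spots of repeated probes. Probes of WNT10A (-1.17 and -1.18) and DKK3 (-0.74, -0.71 and -0.65) lie together, those of WNT6 (-0.94 and -0.20) do not, and the spots of CTNNB1, GSK3B and TCF7 lie near 0.

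Other genes of the pathway were described with 6 lists, whose medians lay between -0.10 and -0.04, near that of all probes. Among 19 genes for secretion, co-receptors and extracellular regulators outside the rule, 12 were measured on both arrays (16 probes, median -0.10), with 2 of 17 measured probes (11.8%) at least 1.5-fold higher and 2 (11.8%) lower in eSAS, against 4.43% and 6.12% of all probes. These 4 calls became 1 without background correction and 0 under each normexp correction that left out marked local background. SOST, an inhibitor that binds LRP5 and LRP6, had 23.3 in SAS and 56.8 in eSAS, 2.53-fold higher. NOTUM, an enzyme that removes the lipid from Wnt ligands, was not well above background in SAS at 17.1 and had 30.8 in eSAS, 1.88-fold higher relative to that dim signal.

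On the lower side stood GPC4, a glypican that binds Wnt ligands, with 137 in SAS and 71.4 in eSAS (1.85-fold), and PTK7, a co-receptor of cell polarity, with 229 and 140 (1.58-fold). The signals of SOST and NOTUM on the SAS array were close to the lowest signal well above background there, 12.8.

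Frizzled turnover and Dishevelled were nearly even, with a median of -0.06 over 14 probes of 9 genes. Of these probes, 1 (7.14%) was at least 1.5-fold lower and 0 higher, against 6.12% and 4.43% of all probes. This call was lost without background correction and under normexp on mean pixels without marked local background. DACT3, a Dishevelled antagonist, had 27.8 in SAS and 16.0 in eSAS, 1.68-fold lower, with its other probe not detected. ZNRF3, a ligase that removes Frizzled from the surface, had 3043 and 2289 (-0.36) with 1 probe and 351 and 315 (-0.10) with the other. The Dishevelled genes, which carry the signal from Frizzled inward, were between -0.30 for DVL3 (1205 and 942) and 0.20 for DVL2 (3053 and 3373). Of the further destruction complex genes and kinases, 19 of 20 were measured (38 probes, median -0.04). At 1.5-fold, 1 probe (2.63%) was higher and 1 (2.63%) lower, against 4.43% and 6.12% of all probes. These 2 calls became 1 without background correction and 1 under normexp on mean pixels without marked local background. The probes of APC2, a paralog of APC, disagreed. One had 39.3 in SAS and 75.2 in eSAS (1.99-fold higher) and another had 106 and 109 (0.10). Both of these lie in the rows with most of the marked spots described at the end. Outside those rows, a further probe had 36.3 and 32.5 (-0.10), and the last was not detected. AMER1, which recruits APC to the membrane, had 681 in SAS and 374 in eSAS, 1.75-fold lower. FRAT2, which binds GSK3, had 3218 and 2197 (-0.50), and the kinase CSNK1D had 6171 and 4576 (-0.38) with 1 probe and 8153 and 7802 (-0.01) with the other.

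Among nuclear partners of beta-catenin, 19 of 20 genes were measured (37 probes, median -0.04), with 1 probe (2.70%) at least 1.5-fold higher and 3 (8.11%) lower, shares near the 4.43% and 6.12% of all probes. These 4 calls became 2 without background correction, and 2 or 1 under normexp without marked local background. Of the Groucho co-repressors, TLE4 had 26.7 in SAS and 48.0 in eSAS (1.87-fold higher, with its other probe not detected) and TLE2 had 44.2 and 24.0 (1.78-fold lower). TLE1 (-0.10) and TLE3 (-0.14 and 0.13) were near even. TBL1X, a co-regulator, had 200 and 105 (1.83-fold lower), and CTNNBIP1, which blocks the binding of TCF to beta-catenin, had 8278 and 5020 (1.59-fold lower).

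Planar cell polarity genes had a median of -0.05 over 19 probes of 11 genes. Of 21 measured probes, 1 (4.76%) was at least 1.5-fold higher and 1 (4.76%) lower, against 4.43% and 6.12% of all probes. These 2 calls became 1 under median or quantile scaling. They also became 1 without background correction and under normexp on mean pixels without marked local background. PRICKLE1, a core polarity protein, had 1198 in SAS and 1911 in eSAS (1.66-fold higher), and CELSR2, a polarity cadherin, had 77.6 and 49.4 (1.51-fold lower) with 1 probe and 1684 and 1265 (-0.36) with another. DAAM1, a formin of this pathway, had 3055 and 2184 (-0.43) and 1696 and 1356 (-0.27), and VANGL1, a core membrane protein, had 6500 and 5187 (-0.27), with its other probes at -0.24 and -0.10.

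Common transcriptional targets of beta-catenin had a median of -0.04 over 33 probes of 19 genes. Of the 37 measured probes in this list, 8 (7 genes, 21.6%) were at least 1.5-fold lower and 2 (5.41%) higher, against 6.12% and 4.43% of all probes. The 10 probes past 1.5-fold became 3 without background correction and 3 under each normexp correction that left out marked local background. MYC, with 41362 in SAS and 44542 in eSAS on its brightest probe (0.16, and -0.05 and 0.22 on the others), and CCND1, with 2335 and 2500, 4624 and 5099, and 3031 and 3657 (0.15, 0.20 and 0.33), are among the targets used most often and were chosen for naming after their values were seen.

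The lower targets included ASCL2, a stem cell factor of the intestine, with 1967 in SAS and 744 in eSAS (2.55-fold) on 1 probe while its other probe was not detected, and JUN, with 30043 and 16651 (1.74-fold). ID2, an inhibitor of differentiation factors, had 100 and 52.3 (1.84-fold) and 43.9 and 19.5 (2.17-fold), and EPHB3, an ephrin receptor, had 101 and 63.2 (1.53-fold). TNFRSF19 (48.6 in SAS), NRCAM (54.8) and TCF4 (36.2) were not well above background in eSAS. TNFRSF19 was at least 3.08-fold lower, and another probe of it was not detected on either array. NRCAM and TCF4 had dim eSAS signals of 16.1 and 18.6 and were 3.29-fold and 1.88-fold lower relative to these. MMP7, a matrix protease, was higher, with 69.4 in SAS and 105 in eSAS (1.58-fold), as was NOTUM, whose values are given above. NOTUM is counted both here and in the list of secretion and co-receptors. RNF43, ZNRF3 and NKD1 stand both here and in the list of Frizzled turnover. A target list of this kind also answers to other pathways, so its values say nothing of beta-catenin activity by themselves.

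**Figure D4:**
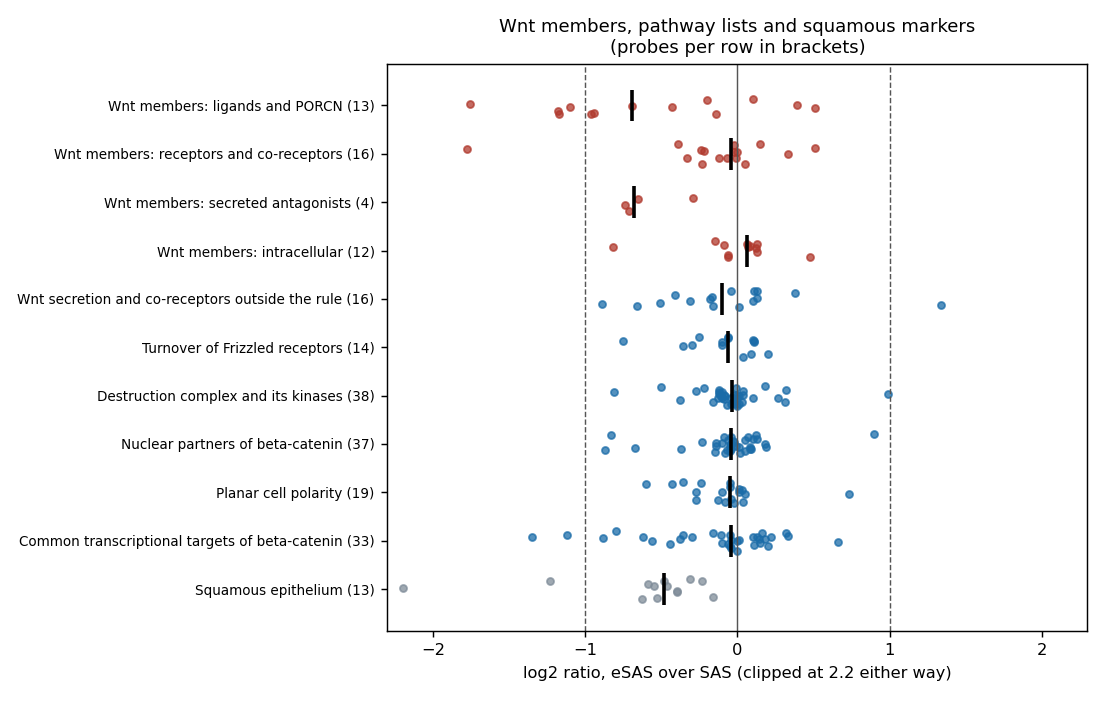
Log2 ratio of eSAS over SAS for each probe well above background on both arrays, by group of Wnt genes (red), pathway list (blue) and squamous markers (grey), with the number of probes in brackets. Black bars are medians and dashed lines mark 2-fold. The pathway lists have medians from -0.10 to -0.04, whereas the squamous markers have a median of -0.48 and all lie below 0.

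Position on the array was checked for the Wnt probes. Rows 459 to 510, of 532, were chosen from the positions of the 194 probe spots that the software marked as non-uniform on the SAS array. They were set to hold most of these spots, so that 176 lay there follows from the choice. Of the 8 Wnt probes with a spot there, 5 were measured and 0 passed 1.5-fold. Over all probes 6.12% were lower and 4.43% higher by that much, so 5 probes were too few to tell of position. Of the list probes given with signals above, those of LUM, S100A2, ZNRF3 (-0.36), CCND1 (0.33), VANGL1 (-0.10) and APC2 (0.99 and 0.10) lay wholly in these rows. WNT3A, both probes of WNT10A and PORCN were at least 2-fold lower under all 14 ways of processing that were run, and FZD10 under 13. DKK3 was at least 1.5-fold lower with all 3 probes under all 14. These probes were unmarked, well above background on both arrays and outside those rows. The source table, the filters, the marked spots and the rows therefore could not change their ratios. Only the scaling and the background could, and for WNT10A and DKK3 the averaging per gene. WNT6, WNT7A and WNT5B changed direction under 1 background correction, in which the SD over all probes was 1.15.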

How the data were processed

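Total RNA from SAS and from eSAS was hybridised to 2 one-colour Agilent arrays of 1 slide, 1 per population. The authors deposited the linear intensity values that Agilent Feature Extraction 10.7.3.1, named in the submitters' processing notes, gave for each spot: processed signals corrected for background and not scaled between arrays, pixel means and medians, local background and marks. The deposited series table of intensities was equal to the processed signal in 90030 of 90030 values. The scaling behind the fold changes of the study is not given in the sources used here.

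The log2 processed signal minus the 75th percentile of non-control spots was used. Of 43376 such spots on each array, those marked non-uniform or population outlier were left out (194 and 82 for SAS, 8 and 78 for eSAS), and the rest were averaged to 40814 probes. A probe was well above background where more than 50 percent of its spots were, and a dim value was replaced by the higher of itself and the lowest signal well above background (12.8 and 15.2). No spot was saturated. All Wnt genes with a probe well above background on 1 array or more are named with their signals, and of each list the genes past 1.5-fold and up to 4 with the largest ratios, taken over probes that both arrays measured. The Wnt genes and lists were chosen with earlier results of these data known. Probe positions are those of the array design, in hg18. The number of arrays limits the precision. The counting was tested on simulated data. Alternatives covered scaling, background, filters, marked spots, probes per gene and position. Python 3.11.15, R 4.3.3 and limma 3.58.1 were used.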

Additional observations from a re-analysis of the deposited data

How the results depend on the processing

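No paired analysis was possible because each population has a single array, and the slide could not be a block because both arrays share it. In all, 13 alternatives were run. They changed the scaling (none, median or quantile), the background (none, normexp with all spots, or normexp leaving out marked local background on mean or median pixels), the source table, the filter (both arrays, or none), the marked spots, the averaging per gene, and the rows 459 to 510. Normexp with all spots moved the median of all probes by 0.53 and their SD from 0.36 to 1.15, and its values are given relative to that shift. Under it, 14 Wnt probes were 2-fold higher, 11 were 2-fold lower and 17 were 1.5-fold higher, and list medians became 0.45 (secretion and co-receptors), -0.35 (destruction complex), -0.38 (nuclear partners), -0.93 (planar cell polarity) and 0.07 (targets). WNT6 (0.74, dimmer probe), WNT7A (1.13) and WNT5B (0.41) reversed, and FZD10 was -0.86. Leaving out the 26 eSAS spots with a non-uniform local background brought the SD under normexp to 0.25. The count of Wnt probes 1.5-fold higher, 1 in the report, was 0 without scaling, with either normexp that leaves out marked local background, without background correction and with the filter on both arrays. Without a filter, 2 were 1.5-fold higher, 1 was 2-fold higher, 8 were 2-fold lower and 21 were 1.5-fold lower. Over all probes, 1.5-fold lower calls went from 1740 to 806 with normexp without marked spots, 797 without background correction and 785 on median pixels. The median of Frizzled turnover became 0.02 without background correction. For the other settings, the cause was not tested. Dim signals limit the probes well above background on 1 array only (WNT10B, WNT8B, FZD9, FRZB and 1 of LGR6), which have only a bound or, for WNT10B and FZD9, a ratio to a dim signal.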
